A study of Mus musculus with 4 samples.

Results

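Immediate early transcription factors are the genes that a cell switches on within minutes of a growth, stress or hormone signal, without making new protein first. The 10 examined here, chosen by gene symbol, were Fos, Fosb, Jun, Junb, Jund, Egr1, Ier2, Ier3, Myc and Klf6, which are 10 of the 35275 genes in the liver read count table. The rule used gene symbols only, but the genes and the lists of related genes below were chosen with earlier results of these data known. Livers came from female mice of a congenic strain that carries Apoa2c, the allele whose apolipoprotein A-II aggregates into AApoAII amyloid fibrils. The study text names this strain R1.P1-Apoa2c and its background SAMR1, while the sample labels give the strain as AKR/J, and all 4 groups share the genotype. In the VS (vehicle sedentary) group, mice received vehicle at 10 weeks of age and were not trained. The VI (vehicle interval exercise) group received vehicle and ran interval training (IT) on a treadmill for 16 weeks. The FS (fibril sedentary) and FI (fibril interval exercise) groups received 1 μg of AApoAII fibrils intravenously at 10 weeks of age, without and with the same training. All livers were taken at 26 weeks of age, within a day of the end of training.

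Each group was sequenced as 1 library made from the pooled livers of 4 mice, so that the 16 mice gave 4 libraries and no group has a replicate. The libraries held 23442935 to 28814802 counted reads. A count of 3, the limit that a count of 0 allows, corresponded to 0.102 to 0.127 CPM (reads of a gene scaled to the size of its library). Intervals given for a level or a ratio are 95% intervals that cover counting error only, and say nothing of the spread between mice. Hepatocyte markers were abundant in every library, with a summed level of 143868 to 164828 CPM over 6 genes and none at 0. The VS library stood apart by 13 skeletal muscle markers, whose summed level was 80.9 CPM there against 10.7 in VI, and near 1 CPM in the fibril libraries (FS 1.15, FI 1.07). None of the 13 was at 0 in VS or VI, while 3 were in FS and 8 in FI. Below, the fibril ratio is FS versus VS in sedentary mice and FI versus VI in trained mice, and the training ratio is VI versus VS in vehicle livers and FI versus FS in fibril livers, each as a log2 ratio. Those against VS are given beside those that do not use it. Of the 13 muscle markers, 12 reached 1 CPM in a library. These 12 were also more than 2-fold lower in FI than in VI (median log2 ratio -4.27). The same 12 were more than 2-fold lower in VI than in VS (median -2.86). The muscle marker difference thus lies along both fibril ratios and along the training ratio in vehicle livers. The part of this difference in the fibril and training values below was not tested. In bulk liver, fewer cells of a type and less RNA per cell cannot be told apart.

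Fos and Jun family proteins pair through leucine zippers to form AP-1, a factor that reads stress and growth signals carried by the MAP kinases ERK, JNK and p38. Egr1 is a zinc finger factor induced by serum response factor and its Elk partners, Myc pairs with Max to drive growth and ribosome production, and Klf6 is a zinc finger factor of the Krüppel-like family. Ier2 and Ier3 are immediate early response proteins without a classical DNA-binding domain. In liver these genes are known for their surge after partial hepatectomy, feeding, cytokines and injury, and their messengers are usually short-lived.

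The genes are spread over the genome, with Junb and Ier2 less than a megabase apart. In mm10 as the count table gives it, Fos lies at chr12:85473890-85477273, Fosb at chr7:19302721-19310045, Jun at chr4:95049034-95052222, Junb at chr8:84976909-84978748, Jund at chr8:70697739-70700616, Ier2 at chr8:84661331-84662852, Ier3 at chr17:35821684-35822923, Myc at chr15:61985341-61990374, and Klf6 at chr13:5861489-5870393.

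The levels of the 10 genes spanned a wide range. In FPKM, the deposited unit that scales reads to gene length and library total, Ier2 had the highest level in VS, VI and FI (36.0, 30.6 and 34.5 FPKM) and Junb the highest in FS (44.7 FPKM). Jund lay between 24.0 and 29.3 FPKM, Egr1 between 6.96 and 12.8, Jun between 4.53 and 10.8, Klf6 between 2.75 and 5.05, and Myc between 2.16 and 3.90. Fos ranged from 0.580 to 2.70 FPKM and Ier3 from 0.865 to 1.99 FPKM. Fosb was nearly silent, with 5, 9, 5 and 9 reads in VS, VI, FS and FI and at most 0.0978 FPKM, and it was the only gene of the 10 below 1 CPM in every library. Its ratios could not be resolved at this depth (FI versus FS, log2 ratio 1.08, interval -0.60 to 3.06). The 9 others reached 1 CPM and entered the counts below. Among all genes at that level, 86.7% to 88.8% had a lower FPKM than Ier2, and 11.3% to 38.1% a lower FPKM than Fos.

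The genes did not share 1 pattern over the 4 libraries. Fos was higher in both fibril libraries, Jun was lowest in VS and highest in FI, Junb and Klf6 peaked in FS, Egr1 was lower in both trained libraries, and Myc was higher in both trained libraries. Jund and Ier2 were nearly level, with the highest library 1.24 and 1.21 times the lowest.

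**Figure D1:**
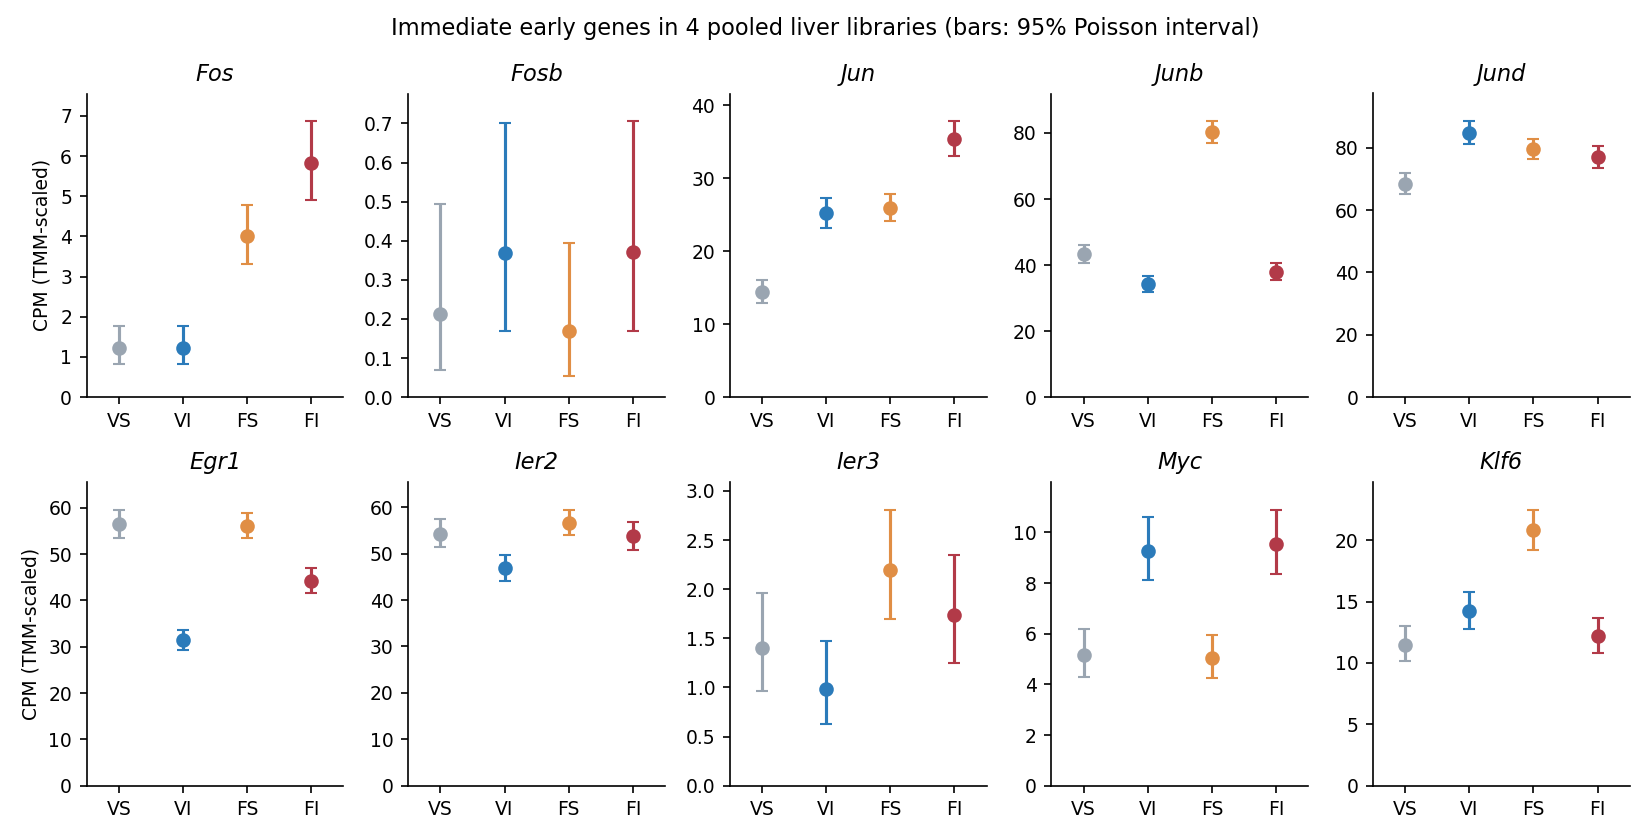
Level of each of the 10 genes in the VS, VI, FS and FI libraries, in TMM-scaled CPM on an axis that starts at 0, with 1 point for each pooled library and bars for the 95% Poisson interval of its count. Fos sits at 1.23 CPM in both vehicle libraries and at 4.00 and 5.83 CPM in the fibril libraries, Junb stands out in FS at 80.3 CPM, and Myc is at 9.28 and 9.55 CPM in the trained libraries.

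The clearest difference between fibril and vehicle livers lay in Fos, which encodes a partner of Jun in AP-1. Fos was at 1.23 CPM in VS and 1.23 CPM in VI, against 4.00 CPM in FS and 5.83 CPM in FI (29, 30, 118 and 141 reads). Each fibril level lay beyond the counting intervals of the vehicle levels. The fibril ratio was 1.68 (interval 1.11 to 2.34) in sedentary mice and 2.22 (1.67 to 2.86) in trained mice, a pair that holds no VS library. In FS versus VS, Fos was the 1 gene of the 9 beyond 2-fold, where 5.80% of all 12180 genes were. Among trained mice it was again the 1 of 9, where 4.54% of all genes were. The median fibril ratio of the 9 was 0.65 in sedentary and 0.20 in trained mice, beside 0.02 and 0.01 over all genes. On the scale of log2(FPKM + 1), which understates low genes, the Fos differences were 0.89 and 1.23.

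Because no group has a replicate, the only test across libraries was an additive model of amyloid and training over 11760 genes, in which the 4 libraries leave 1 residual degree of freedom. In that model Fos rose with amyloid by 1.98 ± 0.27 on the log2 scale (SE; edgeR quasi-likelihood test, Benjamini-Hochberg adjusted p = 0.0111), with both fibril libraries above both vehicle libraries. Jun rose by 0.66 ± 0.14 in the same test (adjusted p = 0.0412), higher in both fibril libraries at matched training. These were 2 of the 9 genes tested, where 4.59% of all genes passed. At an unadjusted p below 0.05 there were 3 of 9, where 21.1% of all genes lay. DESeq2 gave adjusted p = 0.00201 for Fos but 0.0725 for Jun, so that the Jun call was lost there; over the alternatives the adjusted p ranged from 1.5e-09 to 0.0766 for Fos and from 0.000117 to 0.425 for Jun.

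Jun, the AP-1 subunit that JNK phosphorylates, differed along both axes. The VS library gave 14.4 CPM, VI 25.2, FS 25.9 and FI 35.3. The VI and FS levels did not differ beyond counting error (log2 ratio of FS versus VI 0.04, interval -0.12 to 0.20), while FI was 2.46 times VS. The fibril ratio was 0.85 (0.67 to 1.04) in sedentary and 0.49 (0.34 to 0.64) in trained mice. The training ratio was 0.81 (0.62 to 1.01) in vehicle and 0.45 (0.31 to 0.59) in fibril livers. The training term of the additive model was 0.62 ± 0.14 and did not pass the edgeR test (adjusted p = 0.0956). Junos, an antisense gene that overlaps Jun, held 4 to 18 reads a library against 339 to 855 for Jun, and the sources used here do not say whether counting used strand.

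Junb, a Jun relative that often restrains Jun, and Klf6 had a high point in FS. Junb was at 80.3 CPM in FS, against 43.4 in VS, 34.2 in VI and 38.0 in FI. Klf6 was at 20.8 CPM in FS, against 11.5 in VS, 14.2 in VI and 12.2 in FI. For both genes FS stood above the other libraries beyond counting error, and the FI level lay within the range of the vehicle libraries. Each was the nearest of the 10 genes to the other, at a Euclidean distance of 0.550 between their centred log2 CPM over 4 libraries. In sedentary mice the fibril ratio was 0.89 (0.78 to 1.0) for Junb and 0.85 (0.64 to 1.06) for Klf6. In trained mice, without VS, it was 0.15 (0.02 to 0.29) for Junb and -0.22 (-0.45 to 0.00) for Klf6. In fibril livers the training ratio was -1.08 (-1.19 to -0.97) for Junb and -0.77 (-0.98 to -0.57) for Klf6. Junb was the 1 gene of the 9 beyond 2-fold in FI versus FS, where 4.28% of all genes were. The summed Kupffer cell and neutrophil markers were also highest in FS, at 318 and 5.39 CPM against 300 and 3.72 in FI and less in VS and VI. By gene, 3 of the 6 Kupffer cell markers were higher in FI than in FS (median log2 ratio of the 6, -0.06). Only 2 of the 9 neutrophil markers reached 1 CPM. The part of these cells was not tested.

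The training ratio of these genes was unlike in vehicle and fibril livers. For Junb it was -0.34 in vehicle livers, and the fibril value minus the vehicle value was -0.74 (interval -0.91 to -0.56). For Klf6 it was 0.31 in vehicle livers, and the same difference was -1.07 (-1.38 to -0.77). Egr1 had a difference of the opposite sign, 0.51 (0.34 to 0.68), and Jun and Jund each had -0.36. For Fos, Ier2, Ier3 and Myc the interval of the difference included 0. These are differences between 4 libraries, with no replicate check, and the additive model takes this term as its residual. The amyloid term was 0.53 ± 0.18 for Junb and 0.32 ± 0.25 for Klf6, neither of which passed the edgeR test (adjusted p = 0.150 and 0.509).

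**Figure D2:**
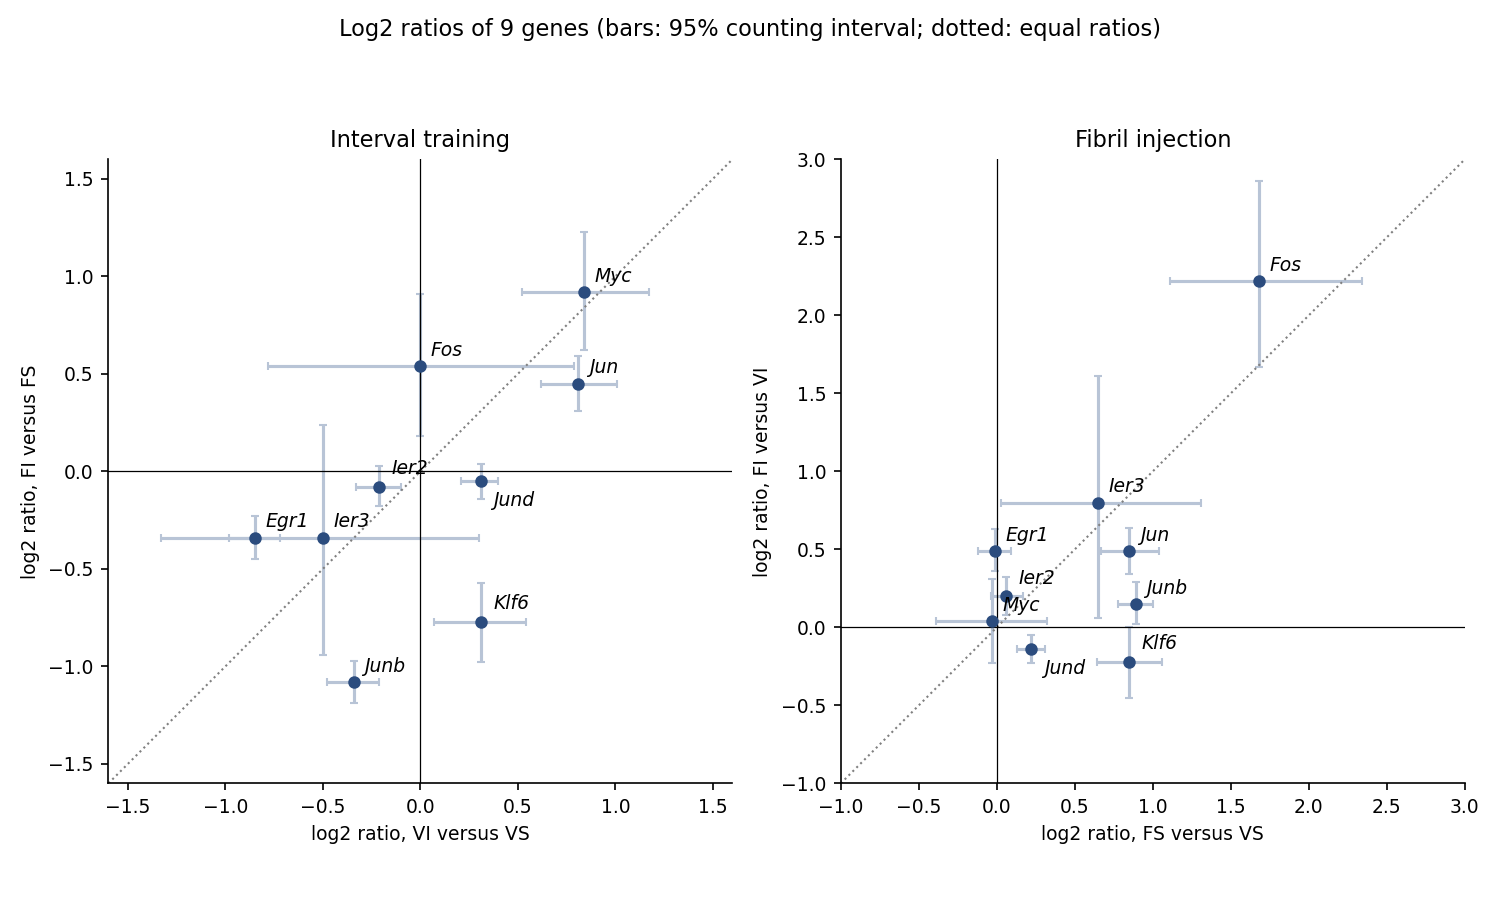
Log2 ratios of the 9 genes at 1 CPM or more, for training on the left (VI versus VS on the horizontal axis, FI versus FS on the vertical) and for fibril injection on the right (FS versus VS, FI versus VI), with 95% counting intervals as bars and equal ratios as the dotted line. Myc lies near the line in the training panel at 0.84 and 0.92, Junb and Klf6 lie below it at -1.08 and -0.77 in FI versus FS, and Fos stands alone at the upper right of the fibril panel.

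The promoters of Fos, Jun, Junb and Klf6 are shown because these 4 genes had the highest fibril ratios of the 9 in sedentary mice. Fos and Jun passed the amyloid test, and Junb and Klf6 peaked in FS. RefSeq sequences of GRCm38.p6 matched 7 of the 10 genes (Egr1, Ier2 and Myc are named only). Each run is the 250 bases before the gene start, 5′ to 3′ on the gene's strand, with capitals for the cAMP response element core TGACG, the CRE-like site TGACNTCA (a search added after the sequences were seen), the CCAAT box and the TATA box TATAAA on either strand. The windows are chr12:85473640-85473889, plus strand for Fos, chr4:95052223-95052472, minus strand for Jun, chr8:84978749-84978998, minus strand for Junb and chr13:5861239-5861488, plus strand for Klf6.
Fos: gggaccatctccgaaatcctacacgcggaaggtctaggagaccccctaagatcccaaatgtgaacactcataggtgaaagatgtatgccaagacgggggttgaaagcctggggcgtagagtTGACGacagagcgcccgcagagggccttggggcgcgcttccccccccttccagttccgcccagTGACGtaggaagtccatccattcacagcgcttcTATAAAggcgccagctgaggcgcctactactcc
Jun: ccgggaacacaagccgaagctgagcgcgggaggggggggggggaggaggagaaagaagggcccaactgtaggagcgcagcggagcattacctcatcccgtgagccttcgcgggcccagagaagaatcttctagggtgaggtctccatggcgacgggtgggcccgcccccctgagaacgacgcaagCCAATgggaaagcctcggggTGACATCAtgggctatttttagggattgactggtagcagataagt
Junb: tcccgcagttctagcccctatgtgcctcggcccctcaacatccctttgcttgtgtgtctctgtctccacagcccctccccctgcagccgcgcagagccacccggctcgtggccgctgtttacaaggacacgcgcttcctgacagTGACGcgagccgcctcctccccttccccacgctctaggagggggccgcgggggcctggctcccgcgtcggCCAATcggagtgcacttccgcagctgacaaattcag
Klf6: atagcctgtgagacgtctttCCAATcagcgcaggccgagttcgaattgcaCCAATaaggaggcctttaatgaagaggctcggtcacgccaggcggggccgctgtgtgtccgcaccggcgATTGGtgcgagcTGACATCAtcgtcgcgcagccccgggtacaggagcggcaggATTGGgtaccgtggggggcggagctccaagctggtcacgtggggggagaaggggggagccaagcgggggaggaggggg

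The letters differed between the genes. Fos had TGACG at 129 to 125 and at 66 to 62 bases before its start and TATAAA at 33 to 28. Jun and Klf6 each had TGACATCA, at 45 to 38 and 119 to 112 bases before the start, and Junb had TGACG at 106 to 102. TGACG was also in Fosb, at 60 to 56. Of 32851 RefSeq promoters cut to the same length, 17.8% hold TGACG, 7.49% TGACNTCA, 12.4% TATAAA and 33.8% CCAAT. TGACNTCA also matches the full element TGACGTCA, which none of the 7 windows held (1.55% of all promoters), and the AP-1 site TGANTCA, the CArG box and the ETS site CCGGAA were likewise in none of the 7 (6.75%, 1.47% and 12.0%). The E-box CACGTG was in Klf6 (6.02%) and the EGR site GCGNGGGCG in Fosb (4.70%), and Jund and Ier3 held none of these motifs but for CCAAT in Ier3. A match is a description of letters and no match speaks only of this window.

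Features of the transcripts were not used in the choice. In GENCODE M21, 4 of the 10 (Jun, Junb, Jund and Ier2) have 1 exon, where 1.93% of 11529 expressed protein-coding genes do, and all 10 have at most 4 exons, where 19.5% do. ATTTA, the core of the AU-rich elements that mark unstable messengers, occurs in the 3′ UTR of 9 of 10 (68.6% of expressed genes) and TATTTAT in 6 of 10 (29.5%). At 3 or more ATTTA there were 4 of 10, near the 37.6% of expressed genes. The median density was 2.75 ATTTA per kb of 3′ UTR in the 10 and 1.29 in all. Klf6 had the most sites (7 in 3111 bases), Ier3 the densest (5 in 613 bases), Fos and Jun had 4 each, and Ier2 had none. A stretch of 30 bases from the 3′ UTR, with ATTTA in capitals, is shown for Fos (chr12:85477090-85477119, plus strand), Jun (chr4:95049210-95049239, minus strand) and Ier3 (chr17:35822476-35822505, plus strand), in GRCm38 coordinates, because each of these stretches holds 2 ATTTA.
Fos: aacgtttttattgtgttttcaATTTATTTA
Jun: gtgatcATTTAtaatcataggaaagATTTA
Ier3: ctccgtgtctaattaatATTTAtgtATTTA

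Myc had the smallest difference between its training ratios of the 9 genes (0.08, interval -0.36 to 0.51). It was at 5.17 CPM in VS and 5.05 in FS, against 9.28 in VI and 9.55 in FI (122, 149, 226 and 231 reads). Within each training state the vehicle and fibril levels did not differ beyond counting error. The training ratio was 0.84 (0.52 to 1.17) in vehicle livers and 0.92 (0.62 to 1.23) in fibril livers, where VS is not used. The training term was 0.88 ± 0.17, which did not pass the edgeR quasi-likelihood test (adjusted p = 0.0609, unadjusted p = 0.00103). It passed with DESeq2 size factors, total counts, no filter on low counts or limma-voom, and the adjusted p ranged from 0.000716 to 0.613 over the alternatives. The amyloid term for Myc was 0.01 ± 0.17.

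Egr1 was lower after training in both vehicle and fibril livers. It was at 56.5 CPM in VS and 56.0 in FS, which did not differ beyond counting error, against 31.4 in VI and 44.2 in FI. The training ratio was -0.85 (-0.98 to -0.72) in vehicle and -0.34 (-0.45 to -0.23) in fibril livers. The fibril ratio was -0.01 (-0.12 to 0.09) in sedentary and 0.49 (0.36 to 0.63) in trained mice. The training term was -0.59 ± 0.14, which did not pass the edgeR test (adjusted p = 0.119); with total counts as the scaling it did (0.0403), and the adjusted p ranged from 0.000248 to 0.898 over the alternatives. Egr1 lies on chromosome 18 at 34859823 to 34864984 and no overlapping gene is annotated.

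No gene of the 9 was beyond 2-fold in VI versus VS, where 3.44% of all genes were. None passed the edgeR test of training, where 1.34% of 11760 genes did. At an unadjusted p below 0.05 there were 4 of 9 (Jun, Junb, Egr1 and Myc), where 14.5% of all genes lay. DESeq2 called 0 of 9 and limma-voom 1 of 9, where they called 182 and 228 of the 11760 genes. The median training ratio of the 9 was 0.00 in vehicle and -0.08 in fibril livers, beside 0.00 over all genes in both.

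The remaining 3 genes gave smaller or less certain differences. Jund, the AP-1 subunit that most resting cells express, was at 68.4, 84.8, 79.6 and 77.1 CPM in VS, VI, FS and FI. Ier2 was at 54.3, 46.9, 56.7 and 53.8 CPM, with FI and VS and then VS and FS indistinguishable by counting error. Ier3, a stress-induced regulator of cell survival, was at 1.40, 0.985, 2.20 and 1.74 CPM from 24 to 65 reads, and no neighbours in its order of levels differed beyond counting error. Its fibril ratio was 0.65 (0.03 to 1.31) in sedentary and 0.80 (0.06 to 1.61) in trained mice, with an amyloid term of 0.73 ± 0.32 (edgeR, adjusted p = 0.243).

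The genes with the pattern nearest to Fos, Egr1 and Myc were found by Euclidean distance of centred log2 CPM over the 4 libraries, among 9012 named genes at 5 CPM or more in a library. For Fos these were Thbd (2.33, 2.22, 5.22 and 8.72 CPM in VS, VI, FS and FI; distance 0.421), Atp11a (0.513) and Fabp5 (0.515). Nearest to Egr1 were Enox2 (7.16, 4.19, 7.21 and 5.75 CPM; distance 0.0560), Pde6d (0.0660) and Rgs12 (0.0721). Rbbp8 lay nearest to Myc (5.12, 9.85, 5.32 and 9.59 CPM; distance 0.0850), followed by Agpat6 (0.158) and Ccng2 (0.161). With 4 points a close pattern is a description and many genes can share it.

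Of 18 kinases and factors upstream of these genes, such as the MAP kinases and the ETS factors they act on, 1 rose with amyloid by the edgeR test, Elk1, an ETS factor that partners serum response factor (77, 87, 177 and 189 reads in VS, VI, FS and FI; 1.01 ± 0.21, adjusted p = 0.0374). Over all genes 4.59% passed that edgeR test. DESeq2 called 0 of the 18 for amyloid (Elk1, adjusted p = 0.119, and 0.000337 to 0.154 over the alternatives), where it called 470 of the 11760 genes. In edgeR 4 of the 18 had an unadjusted p below 0.05 for amyloid, where 21.1% of all genes did. Elk3, a related repressor, was at 7.88, 6.28, 4.67 and 5.17 CPM, and Mkl2, a cofactor of serum response factor, at 27.9, 28.7, 19.0 and 27.0 CPM. The median log2 ratio of the list was 0.08 in FS versus VS and -0.07 in FI versus VI.

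Of the 8 AP-1 partners considered here that were tested, edgeR, DESeq2 and limma-voom each called 0 in either term. Of the 11760 genes they called 157, 182 and 228 for training and 540, 470 and 688 for amyloid. At an unadjusted edgeR p below 0.05 there were 0 for training and 4 for amyloid, where 14.5% and 21.1% of all genes lay. Fosl2, a Fos family member, was at 8.85, 10.2, 13.4 and 14.0 CPM in VS, VI, FS and FI (amyloid term 0.53 ± 0.15, edgeR adjusted p = 0.0948). Atf3, a stress-induced factor, and Jdp2, a repressor of AP-1, were named after their values were seen. Atf3 was at 1.02, 2.18, 3.96 and 2.73 CPM (amyloid term 1.09 ± 0.40, edgeR adjusted p = 0.179), highest in FS, and Jdp2 at 1.61, 2.38, 3.49 and 3.35 CPM. The small Maf proteins, which pair with larger leucine zipper factors, were at 46.8, 32.6, 41.5 and 60.3 CPM for Maff, 13.7, 11.6, 18.1 and 18.4 for Mafk and 118, 85.0, 97.6 and 115 for Mafg. The markers of Kupffer cells, the macrophages of the liver, summed to 204, 255, 318 and 300 CPM over 6 genes with none at 0. The 9 neutrophil markers summed to 2.12, 2.55, 5.39 and 3.72 CPM, with 2, 4, 1 and 3 of them at 0. The part of these cells in the values of Fos, Jun, Junb and Klf6 was not tested.

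Among other immediate early genes, 5 of 19 tested rose with amyloid, where 4.59% of all genes passed, and 1 with training, where 1.34% did. As the list was chosen with earlier results of these data known, these shares are a description only. Btg2, an antiproliferative target of p53, was at 9.19 and 13.5 CPM in VS and VI, against 47.8 and 33.6 in FS and FI (amyloid term 1.84 ± 0.24, edgeR adjusted p = 0.0124). The others with amyloid were Csrnp1 (1.15 ± 0.18, adjusted p = 0.0140), Sgk1 (1.03 ± 0.14, 0.0111), Ctgf (1.02 ± 0.20, 0.0336) and Zfp36 (0.74 ± 0.12, 0.0174). The Ctgf call was lost with DESeq2 (adjusted p = 0.107; 0.000271 to 0.278 over the alternatives). Zfp36, which binds AU-rich elements and speeds messenger decay, was at 64.8, 60.7, 97.6 and 112 CPM. Nr4a1, an orphan nuclear receptor, rose with training from 1.91 to 5.13 CPM in vehicle and from 2.51 to 7.23 CPM in fibril livers (1.48 ± 0.22, adjusted p = 0.0289).

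**Figure D3:**
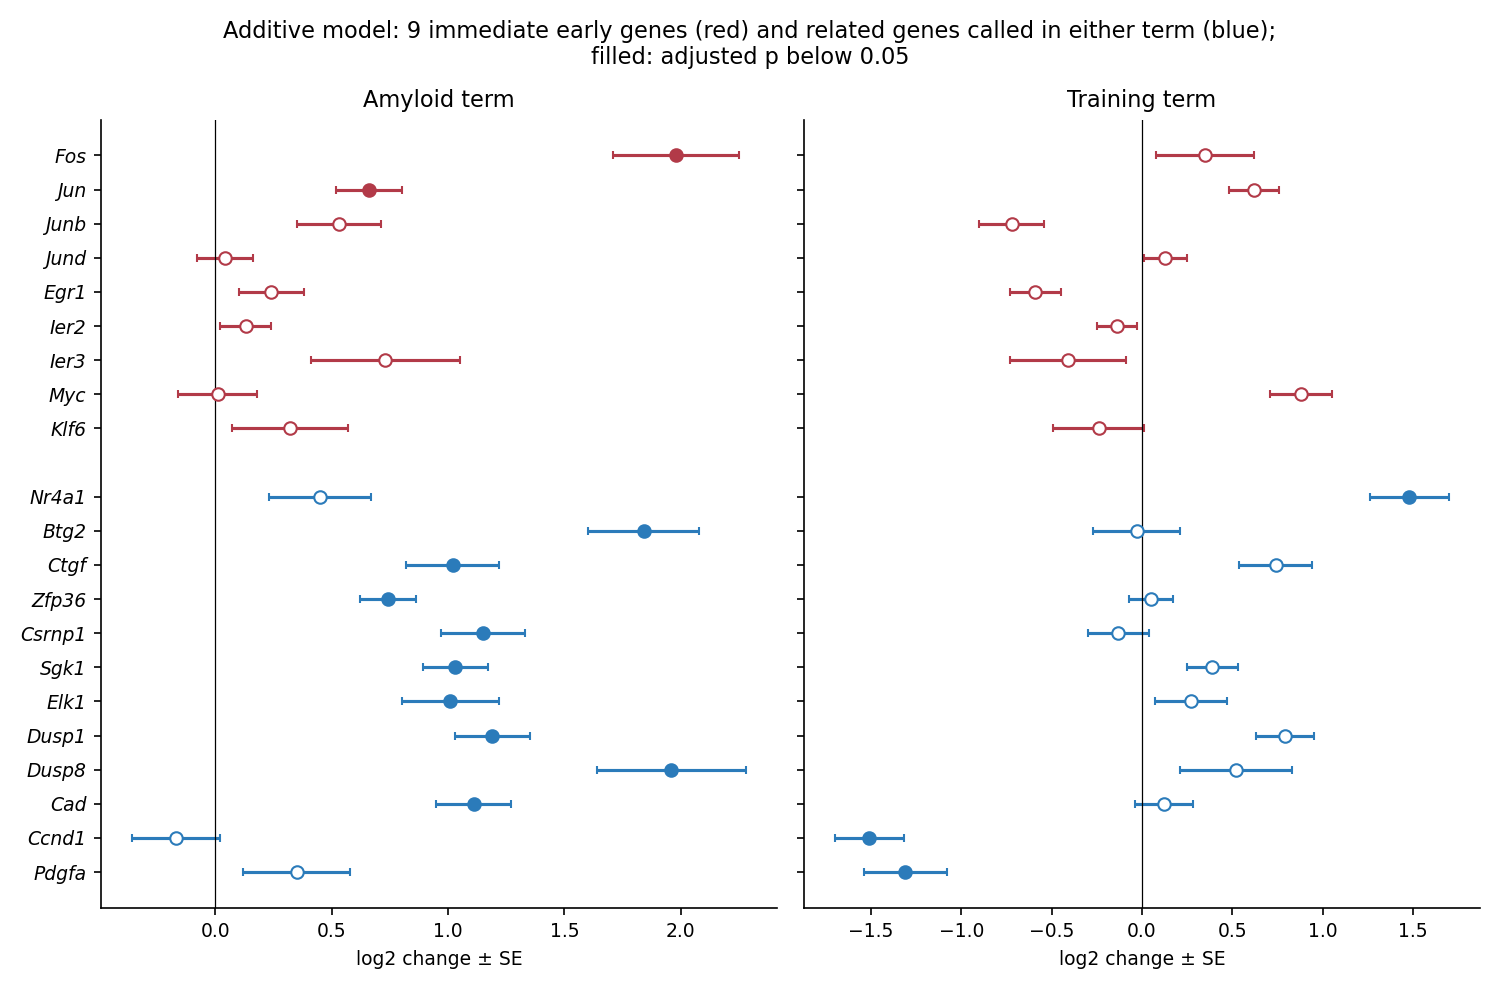
Log2 change with its SE for amyloid (left) and training (right) from the additive model over 4 libraries, for the 9 tested immediate early genes in red and 12 related genes that passed in either term in blue; filled points have an edgeR adjusted p below 0.05. Fos at 1.98 and Jun at 0.66 are the filled red points and both are in the amyloid panel; in the training panel Nr4a1 is filled at 1.48, Ccnd1 at -1.51 and Pdgfa at -1.31.

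The feedback inhibitors that immediate early signals induce had 2 of 14 tested rising with amyloid, where 4.59% of all genes passed. For training edgeR called 0 of 14, DESeq2 1 and limma-voom 1, where they called 157, 182 and 228 of the 11760 genes. At an unadjusted edgeR p below 0.05 there were 2 of 14 for training, where 14.5% of all genes lay. Dusp1, a phosphatase that switches off p38 and JNK, was at 23.5 and 32.6 CPM in VS and VI, against 43.3 and 91.1 in FS and FI (1.19 ± 0.16, edgeR adjusted p = 0.00973). Its training term was 0.79 ± 0.16 (adjusted p = 0.0658), with a training ratio of 1.07 in fibril livers. Dusp8, a phosphatase of the same kind, was at 0.805, 1.97, 5.01 and 5.42 CPM (1.96 ± 0.32, 0.0174). Both were higher in both fibril libraries, the same order as Fos. Spred2, an inhibitor of ERK signalling, was at 8.05, 7.59, 7.21 and 11.8 CPM.

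Nab2, a corepressor that Egr1 induces and that acts on it in return, was named after its values were seen. It was at 17.2 and 17.0 CPM in the sedentary libraries VS and FS and at 9.56 and 12.6 CPM in VI and FI, the same order of libraries as Egr1. Its training ratio was -0.85 in vehicle and -0.43 in fibril livers. The training term was -0.64 ± 0.16, which did not pass the edgeR test (adjusted p = 0.131).

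Downstream, 1 of the 6 EGR1 targets considered here that were tested and 1 of 6 AP-1 targets fell with training, where 1.34% of all genes passed. Pdgfa, the growth factor chain, was at 4.70, 1.77, 5.66 and 2.44 CPM in VS, VI, FS and FI (-1.31 ± 0.23, edgeR adjusted p = 0.0457). DESeq2 did not call it (adjusted p = 0.0983; 6.1e-05 to 0.650 over the alternatives). Vegfa, the vascular growth factor, was at 201, 153, 125 and 126 CPM, Icam1 at 8.55, 9.56, 11.5 and 11.4 and Tgfb1 at 7.20, 8.33, 7.28 and 6.90. Pdgfb at 26, 17, 33 and 15 reads and F3, tissue factor, at 3.43, 2.18, 2.61 and 1.98 CPM did not pass. The median training ratio of the 6 EGR1 targets was -0.52 in vehicle and -0.23 in fibril livers. Ccnd1, cyclin D1, was at 34.4, 15.8, 39.1 and 10.5 CPM (-1.51 ± 0.19, 0.0192), lower in both trained libraries. Cd44 was at 4.87, 5.54, 8.23 and 5.95 CPM and Spp1, osteopontin, at 16.4, 14.0, 15.1 and 7.15 CPM.

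MYC targets had 1 of 20 tested rising with amyloid by the edgeR test, where 4.59% of all genes passed. That gene was Cad, which catalyses the opening steps of pyrimidine synthesis. Cad was at 6.48, 7.84, 15.4 and 15.4 CPM in VS, VI, FS and FI (1.11 ± 0.16, edgeR adjusted p = 0.0124). With training, edgeR, DESeq2 and limma-voom each called 0 of 20, where they called 157, 182 and 228 of the 11760 genes. In edgeR 8 of 20 had an unadjusted p below 0.05, where 14.5% of all genes did. The median training ratio of the 20 was 0.19 in vehicle and 0.21 in fibril livers, with 14 and 16 of them above 0. Odc1, of polyamine synthesis, was at 51.5, 49.7, 40.9 and 67.2 CPM, Nme1 at 9.32, 7.31, 11.4 and 6.53, and Ldha at 726, 659, 1121 and 864. In the MYC and MAX network edgeR, DESeq2 and limma-voom each called 0 of 9 in both terms. For amyloid they called 540, 470 and 688 of the 11760 genes. At an unadjusted edgeR p below 0.05 there were 1 for training and 3 for amyloid, where 14.5% and 21.1% of all genes lay. Mycl, a Myc paralogue, was at 16.1, 13.6, 15.2 and 31.0 CPM, with a log2 ratio of 1.02 (0.85 to 1.20) in FI versus FS. Mlx was at 15.8, 19.3, 24.2 and 23.3 CPM, Mga at 23.3, 24.9, 27.7 and 33.3, and Mxi1 at 32.1, 27.5, 24.9 and 26.4.

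Of 10 clock genes tested, 3 passed the edgeR test for training, where 1.34% of all genes did. Arntl was at 1.44 and 1.12 CPM in VS and FS against 6.65 and 4.71 in VI and FI (2.14 ± 0.25, edgeR adjusted p = 0.0105). Dbp was at 102 and 80.9 CPM in VS and FS against 22.2 and 25.5 in VI and FI (-1.93 ± 0.15, 0.00183), and Nr1d1 at 709 and 1448 reads in VS and FS against 173 and 174 in VI and FI (-2.43 ± 0.19, 0.00183). The other 7 did not pass, and Per2 and Ciart had training ratios of opposite sign (-0.84 and -1.38 in vehicle, 0.11 and 0.19 in fibril livers). The sources used here do not give the hour at which each group was sampled. The part of that hour in the training values of the 10 genes, Jun included, was not tested. Nor was its part in those of the related genes, such as Nr4a1, Ccnd1 and Pdgfa.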

How the data were processed

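RNA from the livers of 16 mice was pooled by group and sequenced as 4 libraries. Per the labels and the submitters' processing notes, the authors trimmed reads with fastp 0.23.2, aligned them to mm10 with STAR 2.5 and counted reads per gene with HTSeq 0.6.1. The sources used here name neither the annotation release nor the strand setting. The deposited read counts were used as they stand. The deposited FPKM values, which the authors made from those counts, gene length and library total, were used for levels between genes. All 69722 FPKM values above 0 were within 0.1% of that calculation.

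CPM used TMM factors of edgeR 4.0.16 in R 4.3.3. Log2 ratios between libraries added a prior of 0.5 counts, for genes at 1 CPM or more in at least 1 library, with Clopper-Pearson intervals. As each group had 1 library, these have no test. An additive quasi-likelihood model of amyloid and training was fitted to all genes at 1 CPM or more in at least 2 libraries. Benjamini-Hochberg adjustment over these genes used a threshold of 0.05. The SE of a change is its absolute log2 value divided by the square root of the F statistic of its test. A run on counts simulated without departure from additivity was also made, which cannot check the p-values given here. The residual of the model comes from the 4 libraries alone, so that its p-values measure how far they depart from additivity, not the spread between mice. DESeq2 1.42.0 and limma 3.58.1 (voom), 2 other scalings, other filters, prior counts and FPKM scales were the alternatives. The 10 genes, the 8 lists of related genes and the 9 marker lists were chosen with earlier results of these data known. Genes named were all 10, the 3 nearest in pattern to Fos, Egr1 and Myc, and in each related list the genes that passed in either term and the 2 with the largest ratio in FS versus VS and in FI versus FS at 5 CPM or more. Genes of the related lists that are not reported here were left out of the list counts. Promoters came from RefSeq and transcripts from GENCODE M21. Of the 10 genes, 5 had the same start and end in GENCODE M21 as in the deposited table.

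The remaining marker lists summed, in VS, VI, FS and FI, to 3.51, 1.77, 3.15 and 2.03 CPM for lymphocytes, 200, 198, 169 and 201 CPM for endothelial cells, 194, 165, 167 and 198 CPM for stellate cells, 3.47, 4.76, 5.05 and 5.42 CPM for cholangiocytes, and 360, 283, 253 and 339 CPM for erythroid cells. Of 5 cell cycle genes, 2 reached 1 CPM and none could be tested (summed level 2.12, 3.04, 4.27 and 2.31 CPM).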

Additional observations from a re-analysis of the deposited data

Results flagged for a closer look

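Klf6 had training ratios of opposite sign, a log2 ratio of 0.31 in vehicle livers (VI versus VS) and -0.77 in fibril livers (FI versus FS), each past its counting interval. Jund had fibril ratios of opposite sign, 0.22 in FS versus VS and -0.14 in FI versus VI. Both are noted because the 1 library of each pair moved one way and that of the other pair the opposite way; with 1 library a group, neither difference was tested.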

How the results depend on the processing

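No paired analysis was possible because each group has 1 library, and for the same reason no library could be left out of the additive model, which has 1 residual degree of freedom. Of 30 values for the difference of the training ratios under other settings, 30 kept their direction and their side of 0. Myc amyloid, 0.01 in the additive model, was -0.00261 with DESeq2 size factors and -0.01 with the DESeq2 test, at adjusted p of 0.995 and 0.999. The Fos ratios fell to 0.89 and 1.23 with FPKM and a pseudocount of 1, and Fos is not tested at 5 CPM or more in 2 libraries.

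The calls named for 12 related genes kept their direction under every alternative run, and each was lost with the factor alone. The filters change how many genes are tested, so the totals below have no common base. Members called for training numbered 1 with DESeq2 size factors, 2 with total counts, 4 with no filter and 1 with limma-voom; all genes called numbered 241, 276, 740 and 228 in the same order, 91 at 5 CPM or more in 2 libraries and 0 with the factor alone. For amyloid, 1 member was called at 5 CPM or more in 2 libraries, 1 with DESeq2 and 0 with the factor alone, where all genes called numbered 406, 470 and 8; with no filter 3 members, Junb among them (adjusted p = 0.000949 in edgeR), and 1519 genes were called. Members beyond 1.5-fold numbered 3 and 3 for training in vehicle and in fibril livers, and 5 and 2 for fibrils in sedentary and in trained mice; with no filter FI versus FS had 2 beyond 2-fold, Fosb being the second, and with FPKM and a pseudocount of 1 FS versus VS had 0. In the same order of contrasts, all genes beyond the threshold numbered 4030, 4177, 4567 and 4197 with no filter, 144, 203, 353 and 229 at 5 CPM or more, 107, 117, 242 and 139 with FPKM and a pseudocount of 1, and 1418, 1647, 2140 and 1702 at 1.5-fold; VI versus VS had 269 with a pseudocount of 0.1.

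With 1 pooled library a group, differences between mice cannot be seen. Counts of Fosb, Ier3 and Fos in vehicle livers were low and limit their ratios.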
